A study of Mus musculus with 12 samples.

Results

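The genes described here encode interferon gamma and the machinery of cytotoxic lymphocytes, and were measured in RNA of mouse splenic B cells with and without a knockout of Sub1, the gene of the coactivator PC4. They are Ifng, the granzymes Gzma, Gzmb, Gzmk and Gzmm, the granule proteins Prf1 and Nkg7, the granzyme inhibitor Serpinb9, and the transcription factors Tbx21 and Eomes. The members were every array probe whose transcript accession belongs to 1 of these 10 genes. That gave 12 probes of 55,681 non-control probes, and 10 genes of 20,018 that the array names. All 10 genes passed the filter on dim probes, which left 22,981 features, 12,295 of them named genes. The filter asked for a probe well above background on all 3 arrays of some group, and Ifng and Eomes passed it through the stimulated knockout group alone. The list was drawn up with earlier results in view. In effect the members were chosen by their knockout against control differences on these arrays, so the values of that comparison are a description and carry no test. The rule itself has no threshold.

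The study had 4 groups of 3 arrays. The stimulated knockout cells were of genotype B1-8hi:Sub1fl/fl-Mb1-Cre and the stimulated control cells of genotype B1-8hi:Sub1fl/fl, both after 72 h with NP-ficoll, CD40 ligand and the cytokines IL-2, IL-4 and IL-5. The resting knockout and resting control cells had the same genotypes and no such stimuli. Every group therefore had the floxed Sub1 alleles and B1-8hi, an antibody heavy chain gene placed in its own locus that confers binding to the hapten NP. Mb1-Cre is a recombinase inserted in the Cd79a locus that is active from early B cell development. Loss of Sub1, presence of Cre and the Cd79a insertion cannot be told apart in these comparisons. The labels give neither the purity of the B cells nor whether each replicate was a separate animal. The p-values therefore reflect variation between these samples, part of which may be technical. Replicates 1 and 2 of each group lay on slide 1 and replicate 3 on slide 2.

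Interferon gamma is the defining cytokine of type 1 immunity, made mainly by natural killer (NK) cells and T cells, and it induces guanylate-binding proteins, antigen presentation genes and the transcription factor Irf1 in the cells that receive it. Cytotoxic lymphocytes kill by releasing granules in which perforin opens the way for granzymes, a family of serine proteases. T-bet, the product of Tbx21, and Eomes are related T-box transcription factors that drive these genes in NK and T cells. T-bet also acts in B cells, where it promotes switching to IgG2a and IgG2c and marks a memory-like subset.

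Levels are log2 processed Cy3 intensities relative to the 75th percentile of the same array, so they compare arrays for 1 probe and not probes with each other. Spots well above background made up 42.6% to 76.8% in stimulated knockout, 24.3% to 60.1% in stimulated control, 40.5% to 76.6% in resting knockout and 41.8% to 64.1% in resting control arrays, and no spot was saturated. The lowest share was that of stimulated control replicate 2. Sub1, the targeted gene, read 6.84 ± 0.11 in stimulated knockout and 8.05 ± 0.22 in stimulated control cells (SD, n = 3 each). The resting Sub1 difference was -0.38 (SE 0.19). The labels do not say which exons were floxed, so a probe outside them would check nothing. All 11 B cell markers on the array were well above background on every array of the stimulated knockout, resting knockout and resting control groups, and between 9 and 11 of them in the stimulated control group. Both arrays of control replicate 1, and no others, had Ddx3y and Eif2s3y well above background and Xist below it. Kdm5d and Uty, also looked at, went otherwise. Kdm5d was well above background on stimulated knockout replicate 1 alone, and Uty on arrays of every group except stimulated control.

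In stimulated cells 11.1% of all features were higher in every knockout array than in every control array. So were 7 of the 10 genes, Ifng, Gzma, Gzmb, Nkg7, Serpinb9, Tbx21 and Eomes, from a list drawn up with this comparison in view. Their log2 differences ran from 1.57 in Nkg7 to 4.47 in Ifng, while Gzmk, Gzmm and Prf1 had positive differences and overlapping groups. After median scaling the differences of Gzmm and Prf1 were -0.09 and -0.06, and that of Prf1 was -0.16 without stimulated knockout replicate 3. In resting cells the groups of 9 genes overlapped. Those of Gzmb did not, and neither did those of 9.93% of all features, with the knockout higher. Gzma and Gzmb were higher in stimulated than in resting cells of both genotypes, and Tbx21 and Serpinb9 were lower in stimulated than in resting control cells. The labels give no time in culture for resting cells, so the stimuli and the time in culture cannot be told apart. RNA of a whole preparation was measured, so more cells of a type and more RNA per cell cannot be told apart for any of these genes.

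Ifng was measured by a single probe printed as 2 spots per array, and both spots were well above background on all 3 stimulated knockout arrays. Its levels were 3.09, 3.21 and 3.29 in stimulated knockout cells, against -0.30, -2.12 and -1.40 in stimulated control cells. All 3 knockout arrays lay far above the control arrays, 1 of which had no spot well above background. The levels were -2.62, -1.82 and -2.10 in resting knockout cells, against -2.69, -2.46 and -2.77 in resting control cells. Resting levels of the genotypes overlapped, and 2 of 3 arrays in each resting group were above background in at least 1 of the spots. The stimulated difference was 4.47 (SE 0.39, 22.1-fold), with 4.36 within slide 1 and 4.69 within slide 2, the 6th highest of 12,295 named genes. The resting difference was 0.46 (SE 0.39). In order of mean level the groups ran stimulated knockout, stimulated control, resting knockout and resting control, and the resting neighbours did not differ beyond their spread.

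Gzma, a tryptase-like granzyme abundant in NK cells, was well above background on all 12 arrays. Its levels were 7.17, 7.28 and 8.35 in stimulated knockout cells, against 4.62, 4.45 and 4.43 in stimulated control cells. The groups did not overlap, and the highest knockout value lay on slide 2. The levels were 0.59, 0.61 and 1.82 in resting knockout cells, against 1.38, 1.13 and -1.48 in resting control cells. On slide 1 the resting control arrays were the higher ones and on slide 2 the resting knockout array was. In stimulated cells the difference was 3.096 (SE 0.68), with 2.68 within slide 1 and 3.92 within slide 2. The resting difference of 0.66 (SE 0.68) turned its sign between the slides, at -0.66 and 3.30.

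Gzmb, the granzyme that starts apoptosis by cleaving caspases and Bid, was low at rest and bright after stimulation. Its levels were 5.92, 5.65 and 6.19 in stimulated knockout cells, against 2.76, 2.65 and 2.94 in stimulated control cells. The arrays of each stimulated group lay close together, and the groups did not overlap. The levels were -3.17, -3.47 and -1.97 in resting knockout cells, against -4.18, -4.00 and -5.21 in resting control cells. All resting knockout values were above all resting control values, but 1 of 3 knockout and 0 of 3 control arrays were well above background, so no resting fold is given. In stimulated cells the genotypes differed by 3.14 (SE 0.41, 8.81-fold), with 3.08 within slide 1 and 3.25 within slide 2. Genes of the granzyme family are similar in sequence, and whether the probes of Gzma, Gzmb, Gzmk and Gzmm read each other's transcripts was not tested.

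Gzmk and Gzmm, granzymes of NK and T cell subsets with trypsin-like and methionine-directed activity, behaved otherwise. Gzmk ranged between -1.01 and 0.22 in stimulated knockout, -1.83 and -0.71 in stimulated control, -1.17 and 0.40 in resting knockout, and -1.30 and -0.27 in resting control arrays, and was well above background on 10 of 12. Its stimulated difference was 0.93 (SE 0.49), with 1.54 within slide 1 and -0.30 within slide 2. Gzmm averaged -0.97 ± 0.77 in stimulated knockout and -1.43 ± 0.60 in stimulated control cells, a difference of 0.46 (SE 0.39), and was well above background on 8 of 12 arrays. All groups of both genes overlapped.

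Prf1 encodes perforin, the pore-forming protein of the granules. It read -0.12, -0.36 and 1.74 in stimulated knockout cells, and between -0.91 and 0.68 in stimulated control cells. The stimulated difference of 0.50 (SE 0.55) was smaller than the spread among the knockout arrays, whose slide 2 array stood above the rest. Resting means were -0.43 ± 0.40 in knockout and -0.11 ± 0.37 in control cells (SD, n = 3 each). Prf1 was well above background on 11 of 12 arrays.

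Nkg7 encodes a membrane protein of cytotoxic granules that takes part in their release. Its brighter probe read 3.72, 3.36 and 4.04 in stimulated knockout cells, against 2.12, 1.96 and 2.32 in stimulated control cells. The knockout arrays stood above every other array. The other groups lay together, between 2.08 and 2.21 in resting knockout and between 1.70 and 2.36 in resting control arrays. Between stimulated genotypes the difference was 1.57 (SE 0.24), with 1.50 within slide 1 and 1.72 within slide 2. A dimmer probe of Nkg7, above background on 11 arrays, gave a stimulated difference of 2.68, again with no overlap.

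Serpinb9 encodes an intracellular serpin that inhibits granzyme B and protects killer cells and antigen-presenting cells from it. Its levels were 0.24, 0.56 and 0.38 in stimulated knockout cells, against -2.29, -2.13 and -1.76 in stimulated control cells, where 1 of 3 arrays was well above background. The levels were -1.21, -0.55 and -0.95 in resting knockout cells, against -0.65, -1.06 and -1.11 in resting control cells. Resting groups overlapped and lay between the stimulated ones. The stimulated difference was 2.45 (SE 0.23, 5.48-fold), with 2.61 within slide 1 and 2.14 within slide 2, and the resting difference was 0.04 (SE 0.23). The mouse genome holds several close copies of Serpinb9, and whether they add to this probe was not tested. Of the 6 copies on the array (Serpinb9b to Serpinb9g), none passed the filter on dim probes.

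Tbx21 read 1.49, 0.72 and 1.57 in stimulated knockout cells, against -1.22, -0.56 and -0.01 in stimulated control cells. The levels were 1.39, 1.37 and 1.16 in resting knockout cells, against 0.98, 1.58 and 1.55 in resting control cells. Of the stimulated knockout arrays 2 lay among the resting ones and replicate 2 lay below all of them, while the stimulated control arrays were lower still. In stimulated cells the difference was 1.86 (SE 0.33), with 1.996 within slide 1 and 1.57 within slide 2, and the resting difference was -0.06 (SE 0.33).

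Eomes had another pattern, with 1 high group and 3 low ones. Its brighter probe read 0.62, 0.40 and 1.99 in stimulated knockout cells, against -1.92, -2.19 and -0.53 in stimulated control cells. Resting means were -1.58 ± 0.77 in knockout and -2.02 ± 0.40 in control cells (SD, n = 3 each), and the gene was well above background on all stimulated knockout arrays and on 4 of the other 9. The stimulated difference was 2.55 (SE 0.56), with 2.57 within slide 1 and 2.51 within slide 2. A second Eomes probe was above background on 2 arrays, both stimulated knockout, and was not tested.

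**Figure D1:**
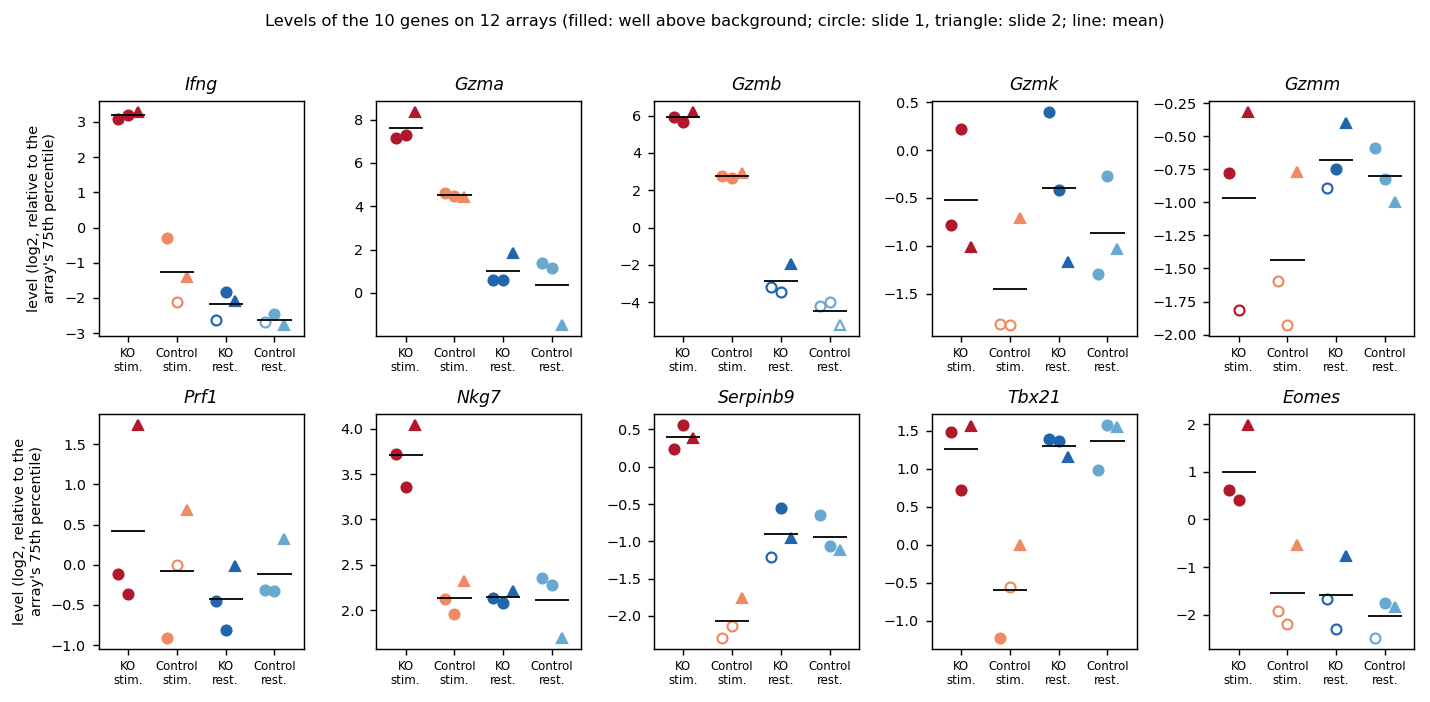
Level of each gene on each of the 12 arrays (log2 intensity relative to the array's 75th percentile, a separate vertical axis per gene), in stimulated knockout, stimulated control, resting knockout and resting control cells from left to right. Filled points are well above background, circles lie on slide 1 and triangles on slide 2, and lines are means of 3. The 3 stimulated knockout arrays of Ifng sit between 3.09 and 3.29, above every other array.

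Across all features the stimulated knockout comparison called 1.21% higher and 2.26% lower (limma, Benjamini-Hochberg adjusted p under 0.05), and 7 of the 10 genes were among those called higher. Groups did not overlap, with the knockout higher, in 11.1% of all features and in the same 7 genes. Nothing is read from these counts, because the list was drawn up with this comparison in view. The median difference was 2.16 over the 10 genes and -0.02 over all features. The split of calls over all features depended on the scaling. The share of called features that were higher was 34.8%, and it was 84.2% with the percentile taken over spots detected on all arrays, 57.1% after quantile normalization and 11.9% after median scaling. The median of all features then lay at 0.39, 0.09 and -0.58, and 7, 6 and 5 of the 10 genes were called higher.

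The calls also depended on single arrays. With 1 array left out, 4 to 7 of the 10 genes were called. The count was 4 without stimulated knockout replicate 1, stimulated knockout replicate 3 or stimulated control replicate 1, and 2 (Ifng and Serpinb9) without both arrays of control replicate 1, when 60 features in all were called. The difference in Ifng was 4.47 at its standard setting, and its call ended in 1 of 26 other settings, as did that of Serpinb9. Both ended when only the 2 groups compared were fitted, where no feature was called. The call of Gzma ended in 11 of 27 settings, of Eomes in 12 of 26, of Tbx21 in 7 of 26, of Nkg7 in 4 of 28 and of Gzmb in 2 of 26. Every setting reuses the arrays on which the members were chosen, and Ifng and Eomes passed the filter through stimulated knockout arrays alone. The counts therefore describe dependence on processing and do not rank the members.

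In resting cells 0.0087% of features were called higher, and none of the 10 genes. By limma 3 features were called in all, while 4534 features and 1 of the 10 genes had an unadjusted p under 0.05. Groups did not overlap, with the knockout higher, in 9.93% of features and in 1 member, Gzmb. The median difference of the 10 genes was 0.28, against -0.21 over all features.

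**Figure D2:**
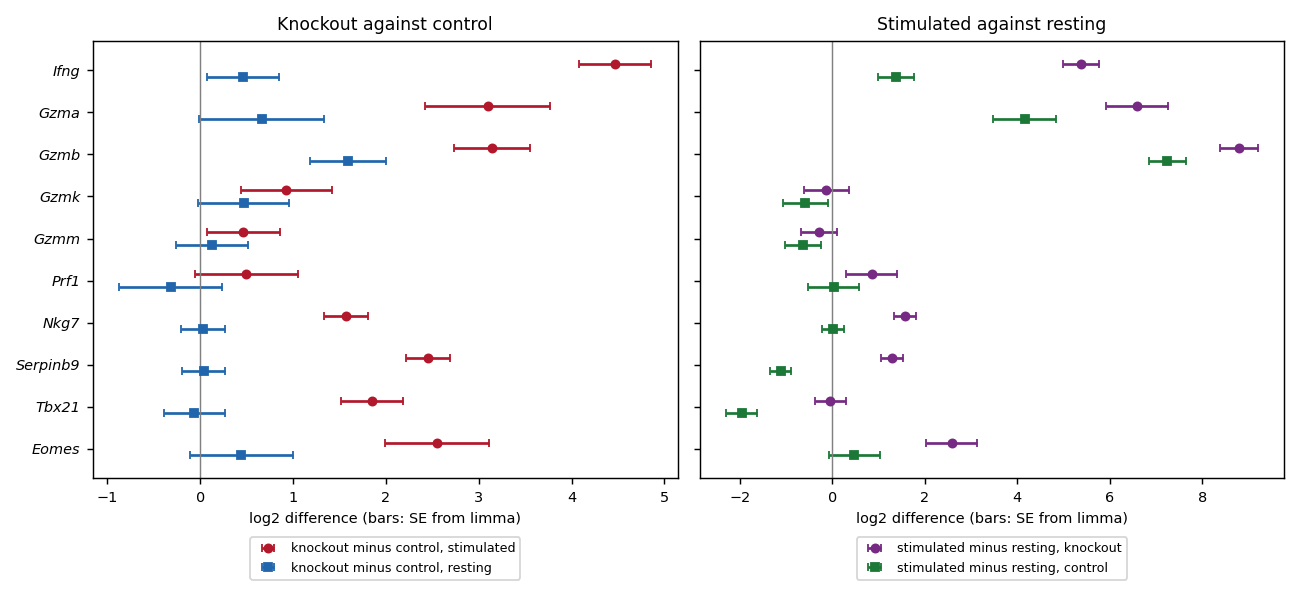
Log2 differences of the 10 genes with the SE from limma (horizontal axis), for knockout minus control in stimulated and resting cells at left and for stimulated minus resting in knockout and control cells at right. At left the stimulated differences of Ifng, Gzma and Gzmb are 4.47, 3.096 and 3.14, and at right the change of Tbx21 is near 0 in knockout and -1.96 in control cells.

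Stimulation was compared with rest within each genotype. These comparisons share arrays with the one in view when the list was drawn up. In knockout cells 6 of the 10 genes were called higher, Ifng and Eomes among them, and none lower, against 10.9% of features called higher and 5.2% called lower. In control cells 3 rose and 2 fell, against 14.7% called higher and 13.1% called lower. The medians were 1.43 over the 10 genes and 0.10 over all features in knockout cells, and 0.03 over the genes and 0.04 over all features in control cells. The share of called features that were higher was 67.7% in knockout and 52.9% in control cells. It was 36.3% and 29.2% in these genotypes with the percentile over spots detected on all arrays, and 51.6% and 41.8% after quantile normalization.

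Gzmb was higher by 8.79 (SE 0.41) in stimulated than in resting knockout cells, with 1 of 3 resting arrays above background. In control cells its rise was at least 40.7-fold, a bound because no resting control array was above background. No p is given for Gzmb here, because it passed the filter through the stimulated groups alone. Gzma rose by 6.59 (SE 0.68, limma adjusted p = 0.000153) in knockout and by 4.16 (SE 0.68, limma adjusted p = 0.00103) in control cells. Both granzymes were thus higher in stimulated than in resting cells without Cre too, at lower stimulated levels than in knockout cells.

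Ifng was higher by 5.38 (SE 0.39) in stimulated than in resting knockout cells, with 5.37 within slide 1 and 5.38 within slide 2. No p is given for Ifng and Eomes in knockout cells, because both genes passed the filter through the stimulated knockout group alone. In control cells it rose by 1.37 (SE 0.39, limma adjusted p = 0.023). That call ended in 8 of 26 settings, among them leaving out resting control replicate 1 (1.34), resting control replicate 3 (1.30) or stimulated control replicate 1 (0.88). The rise in control cells was thus called with all arrays present and lost without any of these.

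Eomes differed by 2.58 (SE 0.56) between stimulated and resting knockout cells. Nkg7 rose by 1.56 (SE 0.24, limma adjusted p = 0.00138) in knockout cells. In control cells the change was 0.47 (limma adjusted p = 0.62) in Eomes and 0.02 (limma adjusted p = 0.969) in Nkg7. The dimmer Nkg7 probe differed from the brighter one in control cells, with a change of 1.08 and no overlap, against 3.002 in knockout cells.

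Serpinb9 rose by 1.30 (SE 0.23, limma adjusted p = 0.00388) in knockout cells and fell by 1.12 (SE 0.23, limma adjusted p = 0.00466) on the log2 scale in control cells. The fall ended as a call after median scaling (limma adjusted p = 0.0769), after normexp background correction, where it was -0.44, and without both arrays of control replicate 1. Tbx21 fell by 1.96 (SE 0.33, limma adjusted p = 0.00135) in control cells, while its change in knockout cells was -0.05 (SE 0.33, limma adjusted p = 0.957). Gzmk, Gzmm and Prf1 passed the test in neither genotype. Their changes lay between -0.29 (Gzmm) and 0.85 (Prf1) in knockout cells, and between -0.63 (Gzmm) and 0.03 (Prf1) in control cells.

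The knockout difference in stimulated cells minus that in resting cells was positive in all 10 genes, with a median of 1.73 against 0.08 over all features. It was 4.01 (SE 0.55) in Ifng, 2.43 (SE 0.96) in Gzma, 1.55 (SE 0.58) in Gzmb, 1.54 (SE 0.34) in Nkg7, 2.42 (SE 0.33) in Serpinb9, 1.92 (SE 0.47) in Tbx21 and 2.11 (SE 0.79) in Eomes. Ifng and Serpinb9 were among the 0.0522% of features called higher. These calls ended in 13 and 15 of 25 settings. With the replicate number as a block the call of Ifng ended and its value was 4.01 (SE 0.59). The contrast contains the comparison that was in view, and nothing is read from the count.

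Over the 12 arrays the levels of the genes moved together in part. Pearson r was 0.98 between Gzma and Gzmb, 0.93 between Ifng and Nkg7, and 0.91 between Nkg7 and Eomes. It was 0.06 between Ifng and Tbx21 and -0.34 between Gzmb and Tbx21. Gzmk reached at most 0.56, with Tbx21. These values describe 12 arrays that share 4 groups, 2 slides and the scaling to each array.

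**Figure D3:**
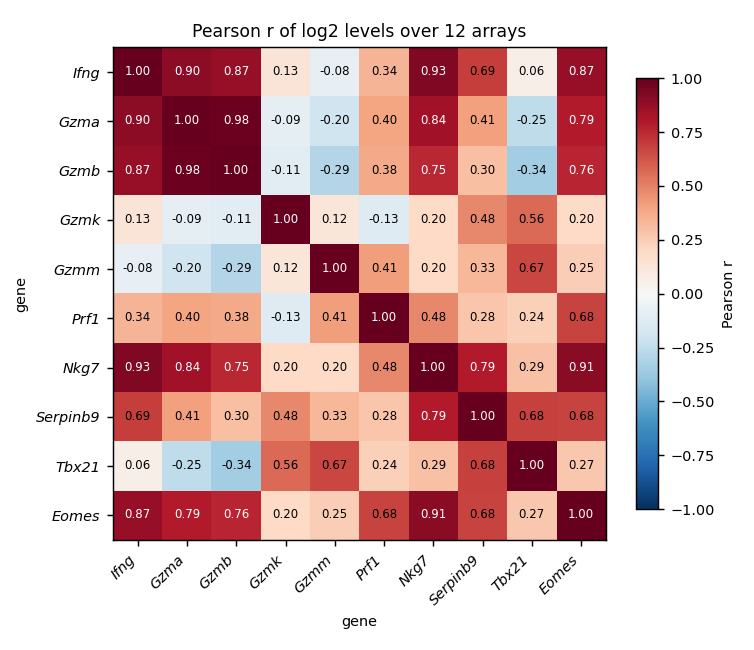
Pearson r between the log2 levels of each pair of the 10 genes over 12 arrays, from -1 (blue) to 1 (red). Ifng, Gzma, Gzmb, Nkg7 and Eomes form a block with r between 0.75 and 0.98, and Tbx21 and Gzmm stand outside it.

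Among 12,295 named genes, those whose levels were most like Ifng's over the 12 arrays were Gbp2 (r = 0.97), Igtp (0.95), Il12rb1 (0.95), Ctsw (0.95), Gbp7 (0.93), Cst7 (0.93), Nkg7 (0.93) and F2r (0.93). Gbp2, Igtp and Gbp7 encode interferon-inducible GTPases, and Il12rb1 a chain of the receptors for IL-12 and IL-23. For Gzmb they were Il2rb (r = 0.98), Gzma (0.98), Slc2a6 (0.97), Dok2 (0.97), Lgals3 (0.97), Ccdc28b (0.97), Cst7 (0.97) and Gadd45g (0.97). Cst7 encodes cystatin F, an inhibitor of the cathepsins that activate granzymes, and Il2rb a chain of the IL-2 and IL-15 receptors. Gadd45g and Slc2a6 were high in both stimulated groups, at 5.95 and 5.69 in knockout and 5.73 and 5.26 in control cells, so the likeness to Gzmb includes genes with little difference between stimulated genotypes.

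The promoters of the cytokine Ifng and of 3 granule genes, Gzma, Gzmb and Nkg7, are shown because the levels of these 4 moved together (r between 0.75 and 0.98). Each is the 250 bases before the annotated start from RefSeq (GRCm38.p6), 5′ to 3′ on the gene's strand, with matches to 3 motifs in capitals. They are Ifng at chr10:118440796-118441045 (plus strand), Gzma at chr13:113100982-113101231 (minus), Gzmb at chr14:56262335-56262584 (minus) and Nkg7 at chr7:43436888-43437137 (plus).
Ifng: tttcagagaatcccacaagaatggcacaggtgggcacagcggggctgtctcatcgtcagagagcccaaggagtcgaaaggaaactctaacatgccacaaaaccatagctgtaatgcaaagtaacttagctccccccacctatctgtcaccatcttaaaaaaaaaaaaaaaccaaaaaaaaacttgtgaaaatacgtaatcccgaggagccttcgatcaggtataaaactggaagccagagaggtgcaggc
Gzma: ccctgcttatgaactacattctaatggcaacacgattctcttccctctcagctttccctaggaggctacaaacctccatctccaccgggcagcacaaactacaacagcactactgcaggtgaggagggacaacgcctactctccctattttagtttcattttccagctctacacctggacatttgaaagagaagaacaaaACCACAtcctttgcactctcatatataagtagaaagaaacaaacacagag
Gzmb: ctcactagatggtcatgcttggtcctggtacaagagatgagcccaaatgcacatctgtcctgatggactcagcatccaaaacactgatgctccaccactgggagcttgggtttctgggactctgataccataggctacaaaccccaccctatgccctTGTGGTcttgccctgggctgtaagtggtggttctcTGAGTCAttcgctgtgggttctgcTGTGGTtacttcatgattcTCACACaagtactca
Nkg7: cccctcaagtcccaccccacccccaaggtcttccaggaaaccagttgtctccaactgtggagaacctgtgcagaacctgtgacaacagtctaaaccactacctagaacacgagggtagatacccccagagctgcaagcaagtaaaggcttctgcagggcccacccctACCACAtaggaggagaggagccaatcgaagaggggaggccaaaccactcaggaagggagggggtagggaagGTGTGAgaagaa

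The motifs searched, on both strands, were the T-box core GTGTGA, the RUNX core TGTGGT and the AP-1 site TGANTCA, and no matches overlapped. The Gzmb promoter held a T-box core starting at -15, RUNX cores at -93 and -34 and an AP-1 site at -58. The Nkg7 promoter held a T-box core at -12 and a RUNX core at -83, and that of Gzma a RUNX core at -50. The Ifng, Serpinb9, Tbx21 and Eomes promoters held none of these letters in this window. Of 11 promoters listed for the 10 genes (2 for Gzmm), 4 held the T-box core, 5 the RUNX core and 1 the AP-1 site. Among 32,851 promoters of the same length the shares were 12.3%, 14% and 6.75%. A match is a string of letters and no evidence of binding.

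Other genes of the pathway were described from 7 lists, in stimulated knockout against stimulated control cells. Of all features 1.21% were called higher and 2.26% lower in this comparison. The lists were chosen with earlier results of these data known and share genes such as Irf1, so nothing is read from their counts. A gene that passed the filter through the stimulated knockout group alone was kept because it was bright there, so its difference is given without a p. Of 12 tested genes for other granzymes and granule proteins, 3 were called higher and none lower, with a median of 0.17, and 2 of these 3 (Gzmc and Cst7) had passed the filter in that way. Ctsw, a cathepsin of cytotoxic cells, rose by 1.79 (SE 0.28, limma adjusted p = 0.0114). Gzmc, a further granzyme, differed by 2.697 (SE 0.58) and Cst7 by 1.95 (SE 0.33). The rest of this list, such as the secretory machinery genes Unc13d, Rab27a and Stxbp2, did not pass. Gzmd, Gzmf, Gzmg and Gzmn were too dim to be tested.

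Of 8 death receptor ligands and receptors, 2 were called higher and none lower, with a median of 0.63. Tnfrsf1a, a receptor of TNF, rose by 2.11 (SE 0.20, limma adjusted p = 0.00152). Fasl, the ligand of the Fas receptor and a further killing pathway, differed by 1.95 (SE 0.42) and had passed the filter through stimulated knockout arrays alone. None of 4 tested intracellular serpins other than Serpinb9 passed, with a median of 0.11. The largest difference among them was -1.45 in Serpinb1a (SE 0.44, limma adjusted p = 0.102).

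Genes upstream and downstream of interferon gamma were also examined. Of 10 tested inducers and their receptors, Il2rb rose by 1.87 (SE 0.30, limma adjusted p = 0.0129) and Il12rb1, which responds to the inducer IL-12, by 1.42 (SE 0.24, limma adjusted p = 0.0154), and the median was 0.44. Of 10 genes for the interferon gamma receptor and its signalling, 1 rose. It was Irf1, at 5.92 ± 0.22 in stimulated knockout and 4.44 ± 0.22 in stimulated control cells (SD, n = 3 each; limma adjusted p = 0.00528). Of 19 tested interferon gamma target genes, 6 rose and none fell, with a median of 1.08. Gbp2 rose by 2.56 (SE 0.29, limma adjusted p = 0.0026), Gbp4 by 1.85 (SE 0.25, limma adjusted p = 0.00674), Gbp5 by 1.69 (SE 0.27, limma adjusted p = 0.0129) and Irgm1 by 1.53 (SE 0.27, limma adjusted p = 0.0161). Irgm1 and the Gbp genes encode GTPases of defence against intracellular microbes.

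Of 19 tested genes associated with T-bet and Eomes, 7 were called higher and none lower, with a median of 0.73, and 1 of the 7 (Gata3) had passed the filter through stimulated knockout arrays alone. Ccl5, a chemokine of activated T and NK cells, rose by 2.59 (SE 0.37, limma adjusted p = 0.00871) and Id2, an inhibitor of E proteins, by 2.39 (SE 0.25, limma adjusted p = 0.00206). Xcl1, a chemokine for cross-presenting dendritic cells, differed by 2.38 (SE 0.50). No p is given for Xcl1, because it passed the filter through the knockout groups alone. Itgax, which encodes CD11c, was at least 4.28-fold higher (limma adjusted p = 0.00243), a bound because no stimulated control array was above background. None of the 7 pathway lists had a gene called by limma in resting cells, where between 0 and 8 genes of a list had an unadjusted p under 0.05. Over all 22,981 features 3 were called in resting cells and 4534 had an unadjusted p under 0.05.

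The list counts in stimulated cells depended on the scaling. With the percentile over spots detected on all arrays, 14 interferon gamma targets, 12 genes associated with T-bet and Eomes, 5 granule genes, 4 death receptor genes and 6 receptor and signalling genes rose. After median scaling 1, 4, 1, 1 and 0 of these lists' genes rose, and the median of the granule list (-0.39), the inducer list (-0.12) and the signalling list (-0.20) was negative. Without both arrays of control replicate 1 the counts were 3, 2, 0, 1 and 1. Without stimulated control replicate 2, the array with the fewest spots above background, they were 6, 7, 2, 2 and 1.

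Stimulation was also compared with rest for these lists, and no difference between the genotypes was tested list by list. Of 19 interferon gamma targets, 6 rose and 2 fell in knockout cells, where 10.9% and 5.2% of all features did. In control cells 1 rose and 8 fell, where 14.7% and 13.1% of all features did. Gbp2 rose by 2.78 (SE 0.29, limma adjusted p = 0.000157) in stimulated knockout cells. Cxcl9, a chemokine induced by interferon gamma, fell by 2.24 (SE 0.33) in knockout and by 2.22 (SE 0.33) in control cells. No p is given for Cxcl9, because it passed the filter through the resting groups alone. It was well above background on 2 of 3 stimulated knockout and 1 of 3 stimulated control arrays. Of 12 granule genes, 3 rose in knockout and 2 in control cells and none fell in either. Gzmc was higher by 5.29 (SE 0.58) in stimulated than in resting knockout cells, and rose by 3.36 (SE 0.58, limma adjusted p = 0.00151) in control cells. Il2ra, the IL-2 receptor alpha chain, rose by 4.66 (SE 0.25, limma adjusted p = 5.76e-06) in knockout and by 6.29 (SE 0.25, limma adjusted p = 7.49e-07) in control cells.

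Markers of other cell types were set beside these values, because NK and T cells are the usual source of such transcripts. These lists too were chosen with earlier results known, and nothing is read from their counts. Of all features 1.21% were called higher and 2.26% lower in stimulated knockout cells. In resting cells 3 of 22,981 features were called and 4534 had an unadjusted p under 0.05. The summed level of the 10 genes lay between 231.4 and 438.3 in stimulated knockout, 34.9 and 39.4 in stimulated control, 11.5 and 14.2 in resting knockout, and 9.67 and 13.3 in resting control arrays, in units of each array's 75th percentile. Gzma and Gzmb were the brightest of them in stimulated knockout cells, with means of 7.60 and 5.92, so they weighed most in that sum. The summed level of 17 NK cell markers lay between 32.8 and 54.6, 9.84 and 14.5, 37.1 and 47.6, and 23.3 and 24.4 in the same order of groups. These sums overlapped between stimulated and resting knockout arrays. Without Fcer1g and Tyrobp, adaptor genes that myeloid cells also express, the sum of the other 15 lay between 14.4 and 27.2 in stimulated knockout, 6.11 and 7.43 in stimulated control, 5.91 and 10.4 in resting knockout, and 4.99 and 8.05 in resting control arrays. Stimulated knockout arrays then stood above all others, and the resting groups overlapped. Il2rb was the brightest tested gene left in the sum of the stimulated knockout arrays, so it weighed most there. Its mean was 3.24 in stimulated knockout, 1.37 in stimulated control, -0.41 in resting knockout and -1.15 in resting control cells. Of 17 NK markers on the array 9 were tested, and 4 of these (Ncr1, Klrb1c, Klra4 and Klra7) passed the filter through the stimulated knockout group alone. In stimulated knockout cells 5 of the 9 were called higher, Klra7 among them, and none lower (median 2.09), against 0 called by limma in resting cells (median 1.13), where 5 had an unadjusted p under 0.05.

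Single NK markers showed the same limits of detection. Ncr1, which encodes the NK receptor NKp46, was well above background on 3 stimulated knockout, 1 stimulated control, 2 resting knockout and 2 resting control arrays. Klrb1c, which encodes NK1.1, was so on 3, 2, 1 and 0 arrays in that order. Klrc1 was below background on all 12. Klra7, an NK receptor gene of the Ly49 family, differed by 2.09 (SE 0.48) between the stimulated genotypes. Klrb1c averaged 0.29 and Klra7 -0.13 in stimulated knockout cells, against -1.73 and -1.49 in resting knockout cells. Both passed the filter through the stimulated knockout group alone, and Klrb1c read 0.79 on stimulated control replicate 2. Tyrobp and Cd244a went the other way, at 3.21 and 0.72 in stimulated against 4.48 and 1.26 in resting knockout cells. Between these states 7 of the 9 tested NK markers had positive and 2 negative differences (median 0.56), and 1 was called higher. Between the stimulated genotypes Fcer1g and Tyrobp rose by 2.48 (SE 0.26, limma adjusted p = 0.00206) and 2.26 (SE 0.48, limma adjusted p = 0.0307).

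The summed level of 15 T cell markers lay between 97.4 and 105.2 in stimulated knockout, 129.3 and 187.8 in stimulated control, 90.7 and 103.7 in resting knockout, and 105.6 and 117.6 in resting control arrays. Cd2, which B cells also express in mice, made up most of it. Without Cd2 the sum lay between 37.3 and 49.2 in stimulated knockout, 22.9 and 26.3 in stimulated control, 15.8 and 26.5 in resting knockout, and 16.4 and 19.9 in resting control arrays, so the order of the stimulated genotypes turned. Lck was the brightest tested gene left in that sum in both stimulated groups, so it weighed most there. Its mean was 4.78 in stimulated knockout, 4.001 in stimulated control, 2.59 in resting knockout and 3.09 in resting control cells. Lck was not called between the stimulated genotypes. Of 13 tested T cell markers, 3 were called higher and 1 lower in stimulated knockout cells (median 0.85), and 11 had positive differences. Cd3g, a chain of the T cell receptor complex, rose by 2.24 (SE 0.53, limma adjusted p = 0.0481), and Zap70, its kinase, by 2.11 (SE 0.37, limma adjusted p = 0.0171). Bcl11b, a T lineage factor that passed the filter through stimulated knockout arrays alone, differed by 1.54 (SE 0.36). Cd2 fell by 1.23 (SE 0.19, limma adjusted p = 0.0113). Cd8a was above background on 2 stimulated knockout, 0 stimulated control, 3 resting knockout and 3 resting control arrays, and Cd3e on 3, 2, 3 and 3.

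Myeloid and plasmablast markers differed between the stimulated genotypes too. The summed level of 13 myeloid markers lay between 29.8 and 38.2 in stimulated knockout, 11.5 and 27.2 in stimulated control, 88.6 and 144.6 in resting knockout, and 47.1 and 79.2 in resting control arrays. Of 12 tested, 4 rose in stimulated knockout cells (median 2.11). Of 7 plasmablast markers 6 fell (median -1.46), and their summed level lay between 296 and 367.6 in stimulated knockout and 618.5 and 963.7 in stimulated control arrays. Of 11 B cell markers 2, Cd79a and Fcer2a, fell and none rose (median 0.05). Cd79a is the locus of the Mb1-Cre insertion, and the part of the insertion in its level was not tested. Its difference was -1.10 (SE 0.24) in stimulated and -1.54 (SE 0.24) in resting cells. In resting cells all 11 B cell markers had negative differences (median -0.59), 7 with an unadjusted p under 0.05 and 0 called by limma. Their sums lay between 933.7 and 1145 in resting knockout and 1400 and 1633 in resting control arrays, with no overlap, while myeloid markers had a median difference of 1.55. Without both arrays of control replicate 1 the calls were 1 of 9 NK, 0 of 13 T, 3 of 12 myeloid, 0 of 7 plasmablast and 0 of 11 B cell markers. After median scaling they were 2 higher, 1 lower, 5 higher, 6 lower and 2 lower. The part of NK, T or myeloid cells in the levels of the 10 genes was not tested.

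**Figure D4:**
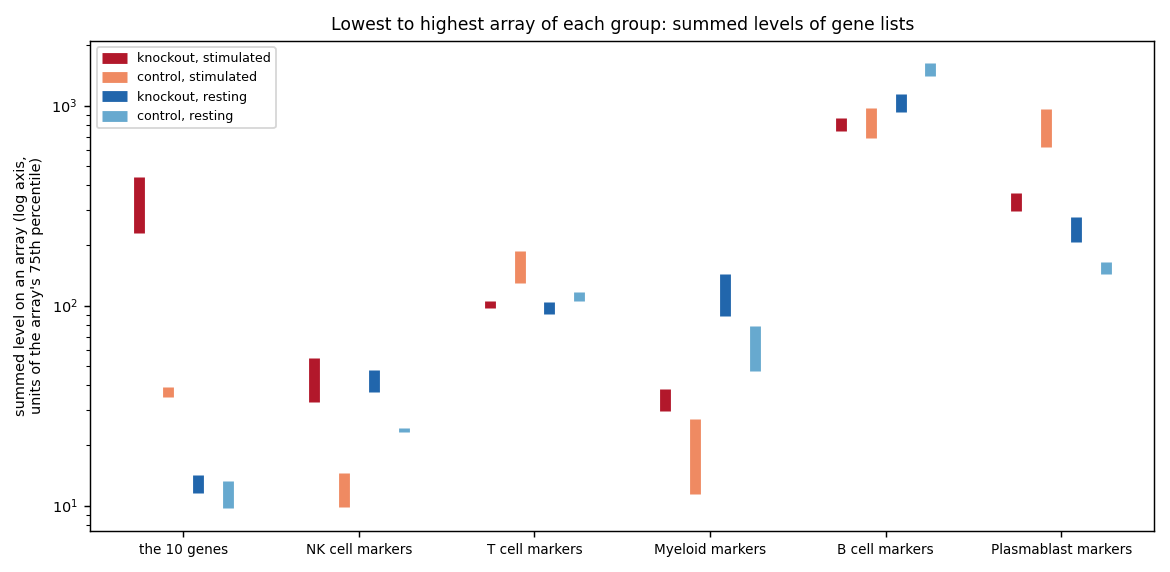
Lowest to highest summed level (linear, in units of each array's 75th percentile, log axis) over the 3 arrays of each group, for the 10 genes and 5 lists of cell type markers, in stimulated knockout, stimulated control, resting knockout and resting control cells from left to right. The sum of the 10 genes is between 231.4 and 438.3 in stimulated knockout, where Gzma and Gzmb weigh most in it, and at most 39.4 in any other group. The NK cell sums of stimulated and resting knockout arrays overlap as long as Fcer1g and Tyrobp are included.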

How the data were processed

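RNA of mouse splenic B cells was measured on 12 one-colour arrays, 3 in each of 4 groups taken from the sample labels. Per the labels it was amplified with amino allyl nucleotides and labelled with Cy3. The values used are the deposited processed signal intensities, on a linear scale. The authors made them with Agilent Feature Extraction, version 10.7.3.1 per the file headers and 9.1 per the submitters' processing notes. The deposited series matrix held the same intensities rounded (largest relative difference 0.497%).

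Outlier spots were set to missing, and each log2 intensity was expressed against the 75th percentile of its array, computed over 59,305 non-control spots. Replicate spots were averaged. Features were kept where at least 50% of their spots were well above background on all 3 arrays of some group. A gene was represented by its brightest probe, named through RefSeq (GRCm38.p6), and 10,686 unnamed probes were kept. The array annotation refers to an older build, so none of its coordinates were used.

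The tests of change used limma (version 3.58.1, under R 4.3.3), after the files had been read with the R package data.table (version 1.17.8), with 4 group means over all 12 arrays, 8 residual degrees of freedom, and Benjamini-Hochberg adjustment over 22,981 features at 0.05. The fit was tested on simulated data. A fold is given as a bound where the dimmer group was not well above background on any array. The bound is the brighter group's mean over the mean of, per array, the higher of the lowest signal well above background and the dim probe's own.

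All 10 members and the label check genes Sub1 and Cd79a are named, with up to 4 called genes per list and comparison (or 2 where none was called) and the 8 genes most like Ifng and Gzmb. Other genes were named after their values were seen. The members and the 12 lists were chosen with earlier results of these data known.

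Arrays with the same number deviated together from their group means where stimulated genotypes were compared (r = 0.35, 0.33 and 0.48) and where control cells were compared between states (r = 0.42, 0.43 and 0.51). They did so less evenly between resting genotypes (r = -0.12, 0.20 and 0.39) and between states of knockout cells (r = 0.003, 0.15 and 0.39). In each comparison r was highest for number 3, whose arrays lay on slide 2. With this replicate number as a block the stimulated knockout comparison called 1865 features, against 796 without it, and the same number of members, 7. The labels do not say what a number shares.

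Alternatives covered the replicate or slide as a block, the percentile over 12,977 spots detected on all arrays, quantile and median scaling, normexp (offset 50), the series matrix, filters, single probes, 2-group fits, eBayes with trend and robust settings, and leaving arrays out. The number of arrays limits the precision.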

Additional observations from a re-analysis of the deposited data

Results flagged for a closer look

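Of the genes named here, 4 were called for the interaction (limma, adjusted p under 0.05 over all features). It is the knockout difference in stimulated cells minus that in resting cells. Ifng had an interaction of 4.01, with a knockout difference of 4.47 in stimulated and 0.46 in resting cells. Serpinb9 had an interaction of 2.42, with 2.45 in stimulated and 0.04 in resting cells. Both belong to the list drawn up with the stimulated difference in view, and Ifng passed the filter through stimulated knockout arrays alone. Nothing is read from their calls. The other 2 genes come from lists chosen with earlier results of these data known. Irf1, the transcription factor induced by interferon gamma, had an interaction of 1.79 (SE 0.27, limma adjusted p = 0.0427), with 1.47 in stimulated and -0.32 in resting cells. Jchain, which joins immunoglobulin polymers, had an interaction of -3.89 (SE 0.62, limma adjusted p = 0.0497), with -2.45 in stimulated and 1.44 in resting cells. None of these 4 differences turned its sign within a slide. Each of these calls ended in many of 25 settings, 13 for Ifng, 15 for Serpinb9, 14 for Irf1 and 13 for Jchain, and that of Ifng ended with the replicate number as a block (4.01, SE 0.59).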

How the results depend on the processing

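Over 10 genes, 7 were called in stimulated knockout against stimulated control cells, 0 in resting knockout against resting control cells, 5 when control cells were stimulated, 6 when knockout cells were, and 2 for the interaction. With the replicate block these counts were 7, 0, 5, 6 and 1. With 1 array left out they ranged from 4 to 7, 0 to 0, 4 to 5, 6 to 6 and 0 to 2. The stimulated knockout count was 3 with no filter on dim probes, 2 (of 2 members left, Gzma and Nkg7) with a filter on all arrays, 0 in a fit of the 2 groups alone, where no feature of 22,981 was called, and 2 without both arrays of control replicate 1. For stimulation in control cells it was 3 after median scaling, 1 (of 2) with the filter on all arrays and 3 without both arrays of control replicate 1, and for knockout cells 2 (of 2) with that filter. The interaction count was 1 after quantile normalization, after median scaling and with the filter on all arrays, 0 with no filter and without control replicate 1, and 4 with trend and robust settings. The percentile over detected spots gave 7, 0, 5, 6 and 3.

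Leaving outliers out after the percentile and requiring every spot above background were chosen after seeing the data, as were the alternatives for the gene lists, the marker sums without single genes and the settings followed for Irf1 and Jchain. The first 2 gave the same counts of members and called 747 and 795 features in the stimulated knockout comparison, against 796. The totals were also 2349 with the percentile over detected spots, 1309 with the slide as a block, 1536 with trend and robust settings, 1498 with the filter on all arrays, 56 with no filter and 60 without control replicate 1. The share of interaction calls that were higher was 36.4%, and 55.8% with the percentile over detected spots. That share was 66.7% of 3 resting calls, 88.2% of 51 with the percentile over detected spots, and 0 of 3 after median scaling. Median scaling moved the resting median of all features to -0.81, against -0.21.

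Small uncalled changes turned their sign. For Prf1 under stimulation in control cells the change was -0.35 with the percentile over detected spots, and between -0.35 and 0.45 with 1 array left out. For Nkg7 it was -0.364 with that percentile, -0.109 after quantile normalization, -0.0394 after normexp, and between -0.19 and 0.14 with 1 array left out. For Eomes it lay between -0.0347 and 0.80 with 1 array left out. In knockout cells Tbx21 changed by 0.013 after median scaling, 0.0117 after normexp, and between -0.20 and 0.22 with 1 array left out. Gzmk changed by 0.0748 after normexp and between -0.52 and 0.27 with 1 array left out. Gzmm changed by 0.0556 after normexp and between -0.62 and 0.13 with 1 array left out. For Ifng under stimulation in control cells the change was 0.87 after quantile normalization and 0.85 without control replicate 1 and no longer passed. The same held for Serpinb9 at -0.44 after normexp and -0.86 without control replicate 1. The cause of these moves was not tested, except that fewer arrays or genes enter some settings. Dim signal limits Ifng, Gzmb, Gzmk, Gzmm, Serpinb9 and Eomes, each below background on at least 2 arrays.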

Other observations

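Serpinb9 and Tbx21 share a pattern that Gzma and Gzmb lack, and the values are given without an explanation. Stimulated control cells were the lowest of the 4 groups for both, as they were for Gzmk and Gzmm, at -2.06 ± 0.27 for Serpinb9 and -0.60 ± 0.61 for Tbx21 (SD, n = 3 each), and r between the genes was 0.68 over the 12 arrays. Irf1 had the same order at the low end, with 4.44 in stimulated control cells, against 5.92 in stimulated knockout, 5.26 in resting knockout and 5.58 in resting control cells. Itgax was lowest there too, at -3.30 and below background on all 3 stimulated control arrays, against 0.49 in stimulated knockout, 2.77 in resting knockout and 1.51 in resting control cells.

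Gzmc, a granzyme outside the list, had the group order of Gzmb, with 2.71 in stimulated knockout, 0.02 in stimulated control, -2.58 in resting knockout and -3.34 in resting control cells. Prf1, whose product granzymes need to enter a target cell, had a range of group means between -0.43 and 0.42.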
